A study of Homo sapiens with 18 samples.

Results

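Interferon-stimulated and RNA sensing genes were followed in EpCAM+ cells of 2 human hepatocellular carcinoma (HCC) lines, Huh1 and Huh7, after disulfiram (DSF) and after 5-fluorouracil (5-FU). The set held 9 genes, namely IFIH1, IRF1, IFIT1, IFIT2, IFIT3, OAS1, MX1, ISG15 and IFI6, out of 19720 genes named on the array, and was read from every array probe that carried the RefSeq identifier or symbol of a member. This gave 10 probes, with IFIT2 on 2 of them, out of 42327 probes used. The set was chosen by the signal of RDUR, a transcript linked to RNA sensing, which was higher after 5-FU than in controls on these arrays. For that reason the 5-FU changes within each line are described below without a test, whereas the DSF changes, the levels in the controls and the differences between the lines were tested.

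Cells of each line were left as controls, treated with DSF at 0.1 µM or treated with 5-FU at 1 µM, and after 48 hours living EpCAM+ cells were sorted and their RNA was hybridised to 1-colour arrays, with 3 arrays in each of 6 groups. The methods list DSF together with copper chloride and do not say what the control cells received. Each line is a single established culture, so that the arrays describe these lines and not HCC in general. The methods speak of 3 independent experiments, and p-values measure the spread between these arrays. All 10 hepatoma markers examined, among them ALB, AFP, GPC3 and EPCAM, were well above background on all 18 arrays. Of 7 leukocyte markers on the array, 4 to 6 stood well above background on each array of a group, and their summed signal, in multiples of each array's 75th percentile, was 5.07 to 6.52 in Huh1 controls, 6.22 to 7 after 5-FU and 5.26 to 5.55 after DSF, and 2.42 to 2.52 in Huh7 controls, 4.08 to 5.55 after 5-FU and 2.85 to 3.42 after DSF. Over all arrays the sum was 707 to 1420 for the hepatoma markers. Among the 6 leukocyte markers tested, after DSF ITGAM was called higher (1.03 and 0.67 in Huh1 and Huh7) and CD14 lower (−0.69 and −0.77) in both lines, and FCER1G was called higher in Huh7 (0.81). CD68 was higher after 5-FU by 0.68 in Huh1 and 1.59 in Huh7. The part of the leukocyte markers in the results was not tested. Slides were shared unevenly: the Huh1 controls lay on slide 1 and the Huh7 controls on slide 2, each with all 5-FU arrays of the same line, whereas DSF replicate 3 of Huh1 lay on slide 2 and DSF replicates 2 and 3 of Huh7 were alone on slide 3.

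Cells that detect foreign or misplaced RNA through sensors such as IFIH1 (MDA5) activate interferon regulatory factors and secrete interferons. Interferons bound to their receptors signal through JAK kinases to transcription factors, among them IRF9, that bind the interferon-stimulated response element (ISRE) or the gamma-activated site (GAS) in promoters. The products include RNA-binding IFIT proteins, the RNA-activated enzyme OAS1, the antiviral GTPase MX1, the ubiquitin-like protein ISG15 and the mitochondrial protein IFI6. Hepatocytes carry this pathway and are a natural site of viral infection.

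RefSeq promoter windows from 250 bases before to 50 bases after a transcript start were given for 8 of the 9 genes, in 11 windows on build GRCh38.p14. The ISRE core was searched as GAAANNGAAA and the GAS core as TTCNNNGAA, on both strands, with N as any base. An ISRE core was present in a window of 6 genes, whereas 3.57% of all 35116 promoter windows held it. A GAS core was present in a window of 3 genes, against 7.66% of all windows. Both gene counts take a match in any window of a gene, and IFIT3 and MX1 had several, whereas the shares are of single windows. In a single window of MX1 a GAS and an ISRE core overlapped by 3 bases. IFIT1 and IFIT3 are shown because these neighbours on chromosome 10 both held ISRE cores but moved in opposite directions after DSF, IRF1 because it held a GAS core and no ISRE core, and ISG15 and IFI6 because they held ISRE cores and parted after DSF in Huh1. Each sequence is the 130 bases just before the start, 5′ to 3′ on the strand of the gene, with ISRE cores in capitals for all but IRF1, where the capitals mark the GAS core. They lie at chr10:89392493-89392622 on the plus strand (IFIT1), chr10:89332399-89332528 on the plus strand (IFIT3, the downstream of 2 listed starts), chr5:132490774-132490903 on the minus strand (IRF1), chr1:1013367-1013496 on the plus strand (ISG15) and chr1:27672193-27672322 on the minus strand (IFI6).
IFIT1: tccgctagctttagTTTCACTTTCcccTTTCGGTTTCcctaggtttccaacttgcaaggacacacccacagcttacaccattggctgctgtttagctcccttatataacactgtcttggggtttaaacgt
IFIT3: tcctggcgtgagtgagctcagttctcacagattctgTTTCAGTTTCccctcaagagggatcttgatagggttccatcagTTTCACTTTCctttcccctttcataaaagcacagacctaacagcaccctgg
IRF1: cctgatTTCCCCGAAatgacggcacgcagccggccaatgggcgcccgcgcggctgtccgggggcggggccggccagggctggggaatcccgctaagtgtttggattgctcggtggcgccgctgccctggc
ISG15: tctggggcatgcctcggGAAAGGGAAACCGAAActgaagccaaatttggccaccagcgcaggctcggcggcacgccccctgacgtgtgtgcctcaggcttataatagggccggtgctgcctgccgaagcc
IFI6: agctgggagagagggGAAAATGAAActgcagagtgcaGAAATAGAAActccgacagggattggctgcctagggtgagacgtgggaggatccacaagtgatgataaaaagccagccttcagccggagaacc
The ISRE cores of IFIT1 began 116 and 103 bases before the start, and those of IFIT3 shown here 94 and 51 bases before it. The ISG15 pair overlapped, spanning from 113 to 98 bases before the start, and IFI6 held a further core 156 bases before its start. These matches describe the letters only.

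**Figure D1:**
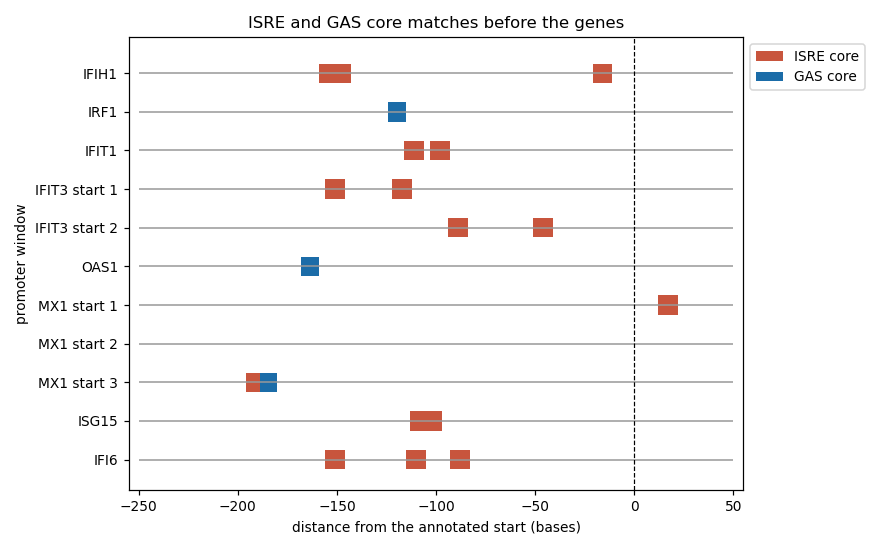
Positions of ISRE core (red) and GAS core (blue) matches in the 11 RefSeq promoter windows of 8 genes; the x axis is the distance in bases from the annotated start (dashed line), and each grey line is a window of 250 bases before to 50 after it. Of the windows, IFIH1 and IFI6 each held 3 ISRE core matches, and the middle window of MX1 held no match of either kind.

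All levels below are log2 values of the probe signal relative to the 75th percentile of the same array, so that 0 stands for the 75th percentile. Each gene is given by its brightest probe, and levels are compared between groups for the same probe only. A change was called when its adjusted p over all 29894 probes tested was under 0.05, and all 10 member probes passed the filter for testing.

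IFIT3, IFIT2 and IFIH1 were far lower in Huh7 controls than in Huh1 controls, whereas MX1 was far higher. Of the 10 member probes 7 were called lower in Huh7 controls and 1 higher, while 36.2% of all probes tested were called lower and 34.5% higher. IFIH1, the cytoplasmic sensor of long double-stranded RNA, read 1.61, 1.30 and 1.22 in the 3 Huh1 controls and −2.14, −2.10 and −1.99 in the 3 Huh7 controls. The difference was −3.45 ± 0.16 (log2, SE), a 10.9-fold lower level in Huh7 (adjusted p = 5.34e-11). IFIT3, which binds IFIT1 and IFIT2 in a complex, read 0.07, 0.15 and 0.14 in Huh1 controls and −3.48, −3.19 and −3.19 in Huh7 controls, a 10.6-fold lower level (adjusted p = 1.41e-13). No Huh7 control came near a Huh1 control for either gene. In bulk RNA, fewer cells that express a gene and less RNA per cell cannot be told apart. IFIT2, a relative with a role in restricting viral translation, was 5.65-fold lower in Huh7 (adjusted p = 7.46e-08), and its dimmer probe was 2.68-fold lower (adjusted p = 5.73e-05).

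The remaining members differed less, apart from MX1. OAS1 was 2.56-fold lower in Huh7 controls (adjusted p = 2.43e-09), IRF1, a transcription factor that drives interferon and antigen presentation genes, was 1.93-fold lower (adjusted p = 1.68e-05), and IFI6 was 1.90-fold lower (adjusted p = 3.58e-05). MX1 read −4.70, −5.28 and −5.32 in Huh1 controls, where 2 of the 3 arrays were well above background, and −1.11, −1.07 and −1.09 in Huh7 controls. This was a 16.1-fold higher level in Huh7 (4.01 ± 0.18 on the log2 scale, adjusted p = 3.31e-11), and with another background correction the difference was 2.49. IFIT1 was lower by 0.60 ± 0.27 (adjusted p = 0.0603) and ISG15 by 0.20 ± 0.09 (adjusted p = 0.075), and neither was called, although the ranges of their controls did not overlap. Both were called with median scaling (adjusted p = 0.0196 and 0.00924) and normexp background correction (adjusted p = 0.0405 and 0.0263), and IFIT1 also with quantile scaling (adjusted p = 0.0485) and an intensity-trend prior (adjusted p = 0.0482). Line and slide cannot be told apart among these control arrays.

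**Figure D2:**
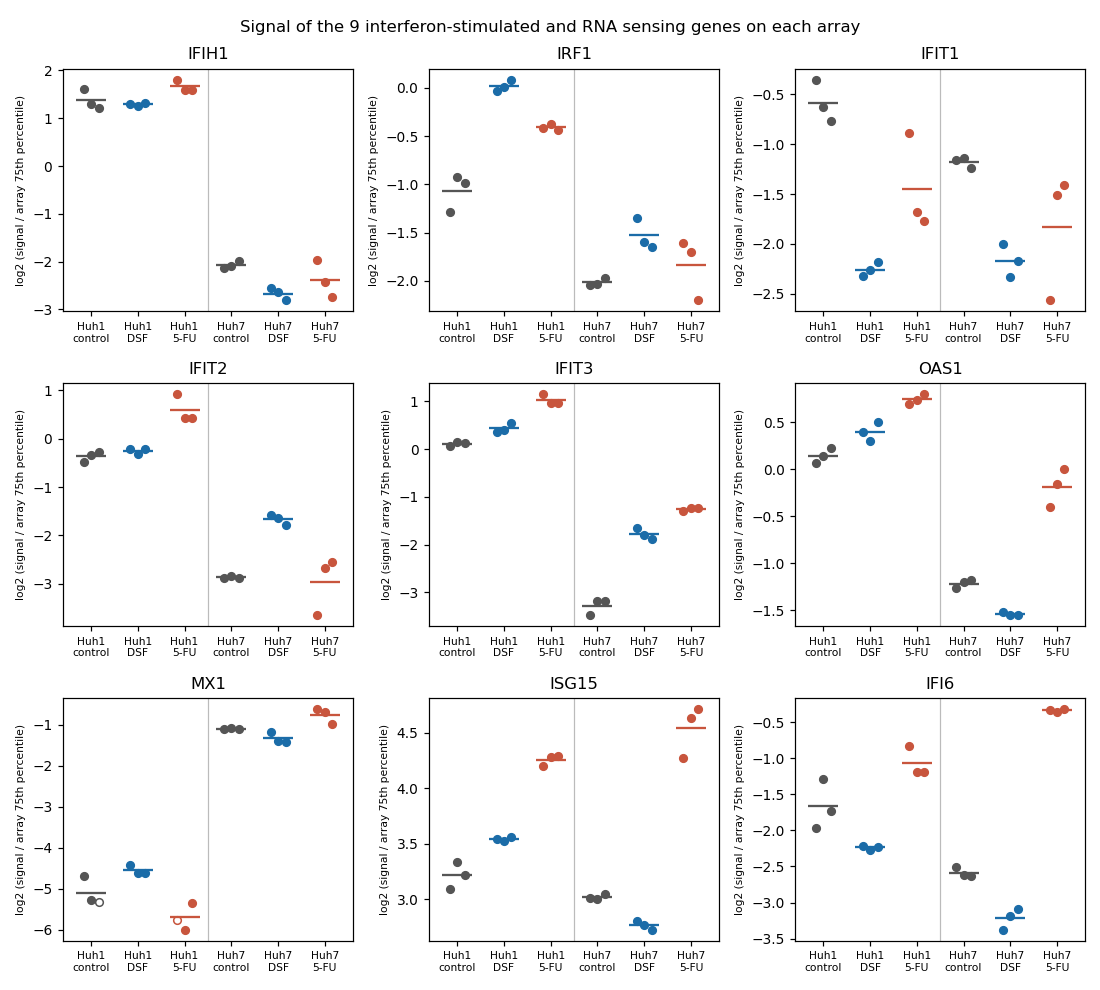
Log2 signal relative to the 75th percentile of the array (y axis) for the brightest probe of each of the 9 genes on all 18 arrays; points are arrays (3 per group, open where not well above background), bars are group means, and colours mark control (grey), DSF (blue) and 5-FU (red). IFIH1, IFIT2 and IFIT3 sat lower in the Huh7 controls than in the Huh1 controls, MX1 sat higher, and IFIT1 was lower after DSF than in the controls in both lines.

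In Huh1 cells DSF treatment raised IRF1 and lowered IFIT1, and changed several other members by small amounts. Of the 10 member probes 5 were called higher, beside 23.9% of all probes tested, and 2 lower, beside 20.3%. IRF1 read −1.29, −0.92 and −0.99 in controls and −0.03, 0.01 and 0.08 after DSF, so that every treated array was above every control. It rose 2.12-fold (1.09 ± 0.14, adjusted p = 1.69e-05). IFIT1, which binds RNA that lacks a self-marking cap, read −0.35, −0.63 and −0.76 in controls and −2.33, −2.27 and −2.19 after DSF, and it fell 3.19-fold (−1.68 ± 0.27, adjusted p = 0.000152). IFI6, a mitochondrial and endoplasmic reticulum protein with antiviral activity, read −1.97, −1.28 and −1.74 in controls and −2.21, −2.27 and −2.23 after DSF, and it fell 1.49-fold (adjusted p = 0.00434). The 3 IFI6 controls were spread more widely than the 3 treated arrays but did not overlap them.

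MX1, ISG15, IFIT3 and OAS1 were called higher after DSF in Huh1 with smaller changes. MX1 rose 1.46-fold (0.55 ± 0.18, adjusted p = 0.02), ISG15, which is conjugated to proteins after interferon, rose 1.25-fold (0.33 ± 0.09, adjusted p = 0.0105), IFIT3 rose 1.25-fold (0.32 ± 0.09, adjusted p = 0.01) and OAS1 rose 1.20-fold (0.26 ± 0.09, adjusted p = 0.0261). These 4 calls depended on the scaling: with each array set to its median instead, where the median change of all probes tested was −0.17, the changes were 0.38 for MX1 (adjusted p = 0.0967), 0.15 for ISG15 (adjusted p = 0.259), 0.15 for IFIT3 (adjusted p = 0.292) and 0.09 for OAS1 (adjusted p = 0.511). MX1 was also not called with quantile scaling (0.28, adjusted p = 0.174) or normexp background correction (0.15, adjusted p = 0.226). IFIH1 was at −0.09 ± 0.16 (adjusted p = 0.693) and IFIT2 at 0.12 ± 0.22 (adjusted p = 0.693), both with overlapping ranges. The dimmer IFIT2 probe was at 0.40 ± 0.23 (adjusted p = 0.172).

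In Huh7 cells DSF treatment raised IFIT3 and IFIT2 and lowered IFIT1. Of the 10 member probes 3 were called higher, beside 27.3% of all probes tested, and 5 lower, beside 19.4%. IFIT3 read −3.48, −3.19 and −3.19 in controls and −1.65, −1.80 and −1.88 after DSF, a 2.85-fold rise (1.51 ± 0.09, adjusted p = 2.07e-08). IFIT2 read −2.87, −2.83 and −2.88 in controls and −1.58, −1.64 and −1.78 after DSF, a 2.29-fold rise (1.20 ± 0.22, adjusted p = 0.000446). For both genes the treated and control arrays lay well apart. The dimmer IFIT2 probe was at 0.49 ± 0.23 (adjusted p = 0.0922), with overlapping ranges. IFIT1 read −1.16, −1.14 and −1.24 in controls and −2.001, −2.34 and −2.18 after DSF, a 1.99-fold fall (−0.99 ± 0.27, adjusted p = 0.00761).

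Among the others, IRF1 rose 1.40-fold in Huh7 (0.48 ± 0.14, adjusted p = 0.00932), which was 0.31 with spike-in scaling (adjusted p = 0.266), and IFI6 fell 1.55-fold (−0.63 ± 0.14, adjusted p = 0.00227). IFIH1 fell 1.51-fold (−0.60 ± 0.16, adjusted p = 0.00671), OAS1 fell 1.25-fold (−0.32 ± 0.09, adjusted p = 0.00741) and ISG15 fell 1.20-fold (−0.26 ± 0.09, adjusted p = 0.0351). MX1 was at −0.24 ± 0.18 (adjusted p = 0.272). Because DSF replicates 2 and 3 of Huh7 were alone on their slide, the change on slide 2 alone rests on 1 treated array against 3 controls, without a test. There it was 1.64 for IFIT3, 1.28 for IFIT2, 0.67 for IRF1, −0.82 for IFIT1, −0.79 for IFI6, −0.48 for IFIH1, −0.30 for OAS1 and −0.22 for ISG15. For each of these 8 genes every treated array lay outside the range of the controls, so the sign on slide 2 was fixed in advance. For the dimmer IFIT2 probe, whose ranges overlapped, the change was −0.10 on slide 2 and 0.49 over all arrays. With slide as a block in the fit, DSF replicates 2 and 3 of Huh7 went into the term of their own slide. The changes then rested on the same 1 treated array. They were −0.82 for IFIT1, −0.48 for IFIH1, −0.30 for OAS1 and −0.22 for ISG15, which were no longer called. Every later value with slide as a block that uses the DSF change in Huh7 rests on that array too.

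Across both lines, IRF1 and IFIT3 were called higher after DSF and IFIT1 and IFI6 were called lower, with all 3 treated arrays outside the range of the controls each time. The share of all probes that did so in both lines is not given, so nothing is read from how many genes did. The call was lost for IFIT3 in Huh1 with median scaling (adjusted p = 0.292) and for IFIT1 in Huh7 with slide as a block (adjusted p = 0.156). For IRF1 in Huh7 it was lost with spike-in scaling (adjusted p = 0.266). ISG15 and OAS1 were called in opposite directions, higher in Huh1 and lower in Huh7. Both were lost with median scaling in Huh1 and with slide as a block in Huh7. ISG15 in Huh7 was also not called with median scaling (adjusted p = 0.0532), normexp background correction (adjusted p = 0.0544) or no filter (adjusted p = 0.0549). OAS1 in Huh1 was also not called with slide as a block (0.21, adjusted p = 0.108). The other 3 genes, IFIH1, IFIT2 and MX1, were called in 1 line each. The difference between the lines was tested directly as the DSF change of Huh7 less that of Huh1. Of the 10 member probes 2 were called positive, beside 21.1% of all probes tested, and 4 negative, beside 19.2%. It was 1.19 ± 0.13 for IFIT3 (adjusted p = 8.19e-06) and 1.08 ± 0.31 for IFIT2 (adjusted p = 0.012), both with the larger rise in Huh7, whereas the dimmer IFIT2 probe gave 0.09 ± 0.32 (adjusted p = 0.85). It was −0.58 ± 0.13 for ISG15 (adjusted p = 0.00294), −0.58 ± 0.12 for OAS1 (adjusted p = 0.0019), −0.60 ± 0.19 for IRF1 (adjusted p = 0.0218) and −0.79 ± 0.25 for MX1 (adjusted p = 0.0206). For IFIT1 (0.68 ± 0.38, adjusted p = 0.166), IFI6 (−0.06 ± 0.20, adjusted p = 0.834) and IFIH1 (−0.51 ± 0.22, adjusted p = 0.0827) no difference between the lines was called. With slide as a block the differences were −0.66 for MX1 (adjusted p = 0.159), −0.39 for IRF1 (adjusted p = 0.262) and 1.17 for IFIT2 (adjusted p = 0.0538), and none of these was called. The calls were also lost for MX1 with median (adjusted p = 0.0539) and quantile scaling (adjusted p = 0.0741), for IRF1 with median scaling (adjusted p = 0.123) and for IFIT2 with spike-in scaling (adjusted p = 0.0554).

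**Figure D3:**
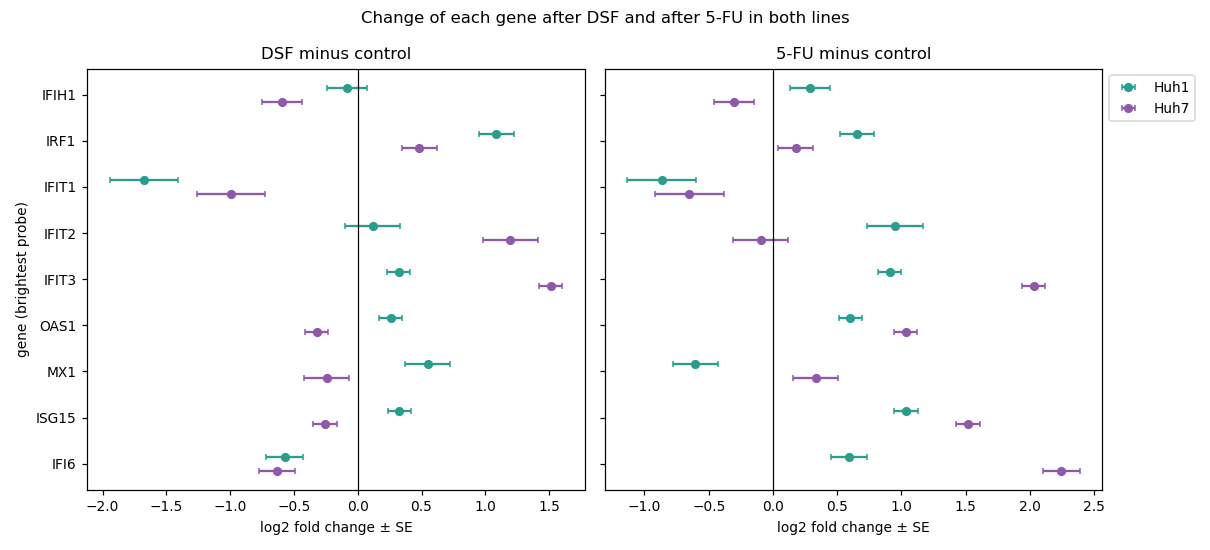
Log2 fold change with its SE for the brightest probe of each gene (y axis) after DSF (left) and after 5-FU (right) relative to control, in Huh1 (green) and Huh7 (purple), from the fit over 18 arrays. After DSF, IFIT1 and IFI6 lay below 0 and IRF1 and IFIT3 above 0 in both lines, while ISG15, OAS1 and MX1 lay on opposite sides of 0; after 5-FU, ISG15, OAS1, IFIT3 and IFI6 lay above 0 in both lines, and the panel on the right is a description.

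The signal of RDUR, which led to the choice of this set, was not well above background on any control array. After 5-FU it was well above background on all 3 arrays in each line, at least 10.4-fold higher in Huh1 and at least 11.5-fold higher in Huh7 than the lowest level that could be read in controls. After DSF it was well above background on 2 of 3 arrays in each line, at least 1.81-fold higher in Huh1 and at least 1.51-fold higher in Huh7. Its probe passed the filter through the 5-FU arrays that led to the choice, so these values are a description.

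After 5-FU, ISG15, OAS1, IFIT3 and IFI6 stood above the controls on every array in both lines, and IFIT1 stood below them. Given as a description, 7 of the 10 member probes were past the same threshold in the higher direction in Huh1, beside 22.2% of all probes tested, and 2 in the lower direction, beside 26.0%. In Huh7 there were 4 higher, beside 27.3%, and 0 lower, beside 29.7%. The set was chosen on this contrast, and nothing is read from these counts. ISG15 read 4.20, 4.28 and 4.29 after 5-FU in Huh1, against 3.10, 3.34 and 3.22 in controls, a change of 1.04 ± 0.09. In Huh7 it read 4.28, 4.63 and 4.72 against 3.02, 3.01 and 3.05, a change of 1.52 ± 0.09. IFI6 read −0.83, −1.20 and −1.19 in Huh1, a change of 0.59 ± 0.14, and −0.33, −0.37 and −0.32 in Huh7, a change of 2.25 ± 0.14 from controls at −2.50, −2.62 and −2.63. The 3 treated Huh7 arrays were nearly level with each other for IFI6.

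IFIT3 was higher after 5-FU by 0.91 ± 0.09 in Huh1 and by 2.03 ± 0.09 in Huh7, and OAS1 by 0.60 ± 0.09 and 1.03 ± 0.09. IFIT2 was higher by 0.95 ± 0.22 in Huh1, where its dimmer probe gave 1.19 ± 0.23. In Huh7 the 5-FU arrays of IFIT2 read −3.64, −2.66 and −2.56 and straddled the controls. IFIT1 changed by −0.87 ± 0.27 in Huh1 and −0.65 ± 0.27 in Huh7, where replicate 1 (−2.57) lay below replicates 2 and 3 (−1.51 and −1.41). IRF1 changed by 0.65 ± 0.14 and 0.18 ± 0.14, IFIH1 by 0.29 ± 0.16 and −0.30 ± 0.16, and MX1 by −0.60 ± 0.18 and 0.33 ± 0.18, in Huh1 and Huh7 respectively. Setting the arrays by their spike-in probes moved the median 5-FU change of all probes tested from −0.03 to 0.79 in Huh1 and from −0.05 to 0.94 in Huh7, so these changes are relative to the bulk of probes. On that scale IFIT1 was at −0.04 in Huh1 and 0.33 in Huh7, and MX1 was at 0.22 in Huh1.

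The difference between lines in the 5-FU change was not used in choosing the set and was tested. Of the 10 member probes 5 were called positive, with the more positive change in Huh7, beside 18.8% of all probes tested, and 2 negative, beside 17.8%. IFI6 differed most, by 1.66 ± 0.20 (adjusted p = 2.51e-05). The difference was 1.12 ± 0.13 for IFIT3 (adjusted p = 1.48e-05), 0.94 ± 0.25 for MX1 (adjusted p = 0.00866), 0.48 ± 0.13 for ISG15 (adjusted p = 0.0107) and 0.43 ± 0.12 for OAS1 (adjusted p = 0.0133). It was −1.04 ± 0.31 for IFIT2 (adjusted p = 0.015) and −1.65 ± 0.32 for its dimmer probe (adjusted p = 0.00122). In Huh1, MX1 was well above background on 2 of 3 control arrays and 2 of 3 5-FU arrays. For IFIH1 (−0.59 ± 0.22, adjusted p = 0.0501), IRF1 (−0.48 ± 0.19, adjusted p = 0.0651) and IFIT1 (0.21 ± 0.38, adjusted p = 0.703) no difference was called. IFIH1 was called with normexp background correction (adjusted p = 0.0142) and a filter on all 18 arrays (adjusted p = 0.0384). It was also called with a replicate block (adjusted p = 0.028) and an intensity-trend prior (adjusted p = 0.0361). IRF1 was called with normexp correction (adjusted p = 0.0276). The summed signal of 5 fibroblast markers was 3.02 to 3.19 after 5-FU in Huh7 against 0.503 to 0.535 in its controls, and that of the leukocyte markers 4.08 to 5.55 against 2.42 to 2.52. Their part in the result was not tested.

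Other genes of the pathway were taken from 7 lists with 98 genes, of which 96 were on the array and 82 were tested. With DSF, 26 passed as higher and 14 as lower for Huh1, beside 23.9% and 20.3% of all probes tested, whereas for Huh7 14 passed as higher and 32 as lower, beside 27.3% and 19.4%. The same shares of all probes stand beside the counts of each list given next. The interferons themselves were hardly measured: of 7 ligand genes on the array, 1 was tested, IFNL2, which was called in no comparison, and 5 or 6 were not well above background on any array of a group. Of the 6 receptor genes all were tested. IFNAR2, a chain of the type I interferon receptor, fell after DSF by 0.52 in Huh1 (adjusted p = 1.52e-05) and by 0.28 in Huh7 (adjusted p = 0.00257). IFNAR1, the partner chain, rose in Huh7 by 0.70 ± 0.06 (adjusted p = 3.25e-07) and was at −0.07 in Huh1, with a difference between the lines of 0.77 ± 0.08 (adjusted p = 5.83e-06).

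Among the 15 sensors and adaptors tested, DSF gave 4 rises and 3 falls in Huh1 against 4 rises and 2 falls in Huh7, near the shares of all probes. RIGI, the sensor of short RNA with a triphosphate end, fell by 0.17 ± 0.06 in Huh1 (adjusted p = 0.0405) and by 0.21 ± 0.06 in the Huh7 line (adjusted p = 0.0126), while TICAM1, the adaptor of TLR3, rose by 0.16 ± 0.06 (adjusted p = 0.0303) and 0.39 ± 0.06 (adjusted p = 5.12e-05). With median scaling TICAM1 was at −0.02 in Huh1. RIGI was not called with slide as a block in Huh1 (−0.16, adjusted p = 0.1) or Huh7 (−0.19, adjusted p = 0.147), nor in Huh1 with spike-in scaling (−0.04, adjusted p = 0.876). CGAS, a DNA sensor, rose 2.48-fold in Huh1 (adjusted p = 0.00208), where 1 of 3 controls was well above background.

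Among the 12 signalling kinases and transcription factors, DSF gave 5 rises and 2 falls in Huh1 against 2 rises and 6 falls in Huh7. IRF9, a DNA-binding factor that acts at the ISRE, rose 2.56-fold in Huh1 (1.36 ± 0.10, adjusted p = 2.06e-07) and fell by 0.37 in Huh7. IRF7, a master regulator of type I interferon genes, fell 3.81-fold in Huh7 (−1.93 ± 0.16, adjusted p = 5.39e-07) and was at 0.32 in Huh1, and the lines differed by −2.26 ± 0.23 (adjusted p = 5.59e-06). JAK2 rose in both lines, by 0.81 ± 0.09 in Huh1 (adjusted p = 3.96e-06) and 0.31 ± 0.09 in Huh7 (adjusted p = 0.00834), while IRF2, a repressor that competes with IRF1, fell in both, by 0.68 (adjusted p = 0.00199) and by 0.59 (adjusted p = 0.00511). With slide as a block IRF2 was not called in Huh7 (−0.47, adjusted p = 0.104).

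Of 23 other type I interferon targets tested, 13 had a more negative DSF change in Huh7 than in Huh1 and 10 were not called for a difference. Of all probes tested, 19.2% were called negative and 21.1% positive for this difference. After DSF limma called 8 rises and 4 falls in Huh1, where the median change was 0.30 against 0.00 for all probes tested. In Huh7 it called 0 rises and 8 falls, where the median change was −0.39 against 0.08. At an unadjusted p under 0.05, 9 of the list were higher and 4 lower in Huh1. In Huh7, 1 was higher and 11 lower at that p. For the difference between the lines at that p, 0 were positive and 14 negative. No share of all probes is given at that p, so nothing is read from these unadjusted counts. By adjusted p none was called positive for the difference between the lines, whose median was −0.87 against 0.05. Over the scaling, background, filter, slide and left-out-array alternatives, 8 to 15 were negative and 0 positive. In Huh1 the split of higher and lower depended on the scaling, with 4 higher and 7 lower under median scaling and 6 higher and 0 lower under spike-in scaling. BST2, which tethers budding virions to the cell, was not well above background on any Huh1 control and was at least 3.97-fold higher after DSF in Huh1 (adjusted p = 1.26e-05). OASL, a relative of OAS1 without its enzyme activity, fell 6.28-fold in Huh7 (−2.65 ± 0.20, adjusted p = 2.05e-07) and was well above background on 2 of the 3 treated arrays. Of the 10 hepatoma markers, 9 fell and 0 rose after DSF in Huh1, while 5 fell and 2 rose in Huh7, and their part in the result was not tested. UBE2L6, the enzyme that passes ISG15 to its targets, fell in both lines, by 0.35 in Huh1 (adjusted p = 0.0339) and by 1.54 in Huh7 (adjusted p = 3.12e-07).

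**Figure D4:**
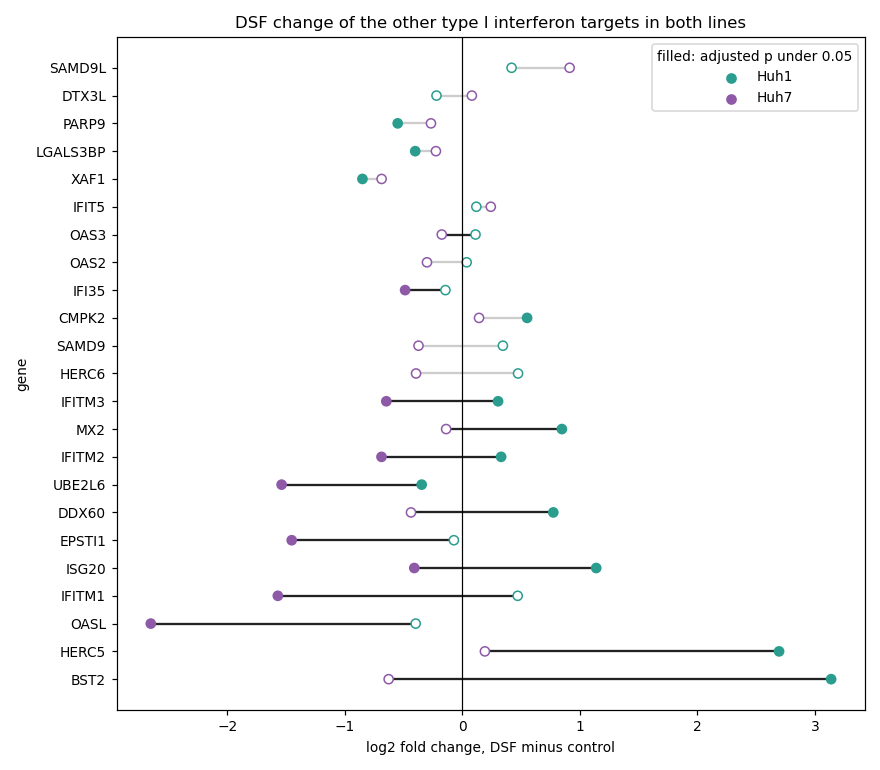
Log2 fold change after DSF relative to control (x axis) for the 23 tested genes of the list of other type I interferon targets (y axis), in Huh1 (green) and Huh7 (purple), ordered by the difference between the lines; filled points are called changes, and dark connecting lines mark the 13 genes whose change differed between the lines. In each of these 13 genes the Huh7 point lies to the left of the Huh1 point.

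The 18 interferon gamma and IRF1 targets tested showed 5 rises and 2 falls after DSF in Huh1, beside 6 rises and 8 falls in Huh7. The immunoproteasome subunit PSMB8 fell 2.56-fold in Huh7 (adjusted p = 1.71e-07), whereas PSMB10 rose by 0.42 ± 0.07 in Huh1 (adjusted p = 0.000141) and 0.95 ± 0.07 in the Huh7 line (adjusted p = 8.94e-08). The proteasome activators PSME1 and PSME2 fell in both lines, by 0.37 and 0.23 in Huh1 and by 0.62 and 0.17 in Huh7. PSME2 in Huh7 was not called with slide as a block (−0.12, adjusted p = 0.248), median scaling (adjusted p = 0.0627) or spike-in scaling (adjusted p = 0.0577), and in Huh1 neither was called with spike-in scaling (adjusted p = 0.207 for PSME1 and 0.633 for PSME2). WARS1, a tryptophanyl-tRNA synthetase induced by interferon gamma, rose in both, by 0.83 ± 0.11 (adjusted p = 3.16e-05) and 0.67 ± 0.11 (adjusted p = 0.000207). ICAM1, an adhesion molecule, rose 2.52-fold in Huh1 (adjusted p = 2.62e-05) and was at −0.42 in Huh7. The 7 inhibitors of the pathway showed 3 rises and 2 falls in Huh1, beside 1 rise and 4 falls in Huh7. SOCS3, a feedback inhibitor of JAK signalling, rose 2.79-fold in Huh1 (1.48 ± 0.47, adjusted p = 0.0184) and fell 3.50-fold in Huh7 (−1.81 ± 0.47, adjusted p = 0.00576), and with slide as a block the changes were about as large, at 1.47 and −1.74, but neither was called (adjusted p = 0.0537 and 0.091). PIAS1 and NLRX1 fell in both lines, by 0.31 and 0.25 in Huh1 and by 0.53 and 0.36 in Huh7.

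The controls of the lines differed in genes at the ends of these lists. MX2, the nuclear relative of MX1, was not well above background on any Huh1 control and was at least 673-fold higher in Huh7 (adjusted p = 6.15e-16). SAMD9L was at least 39.4-fold lower in Huh7, where it was well above background on no control. The SAMD9L probe passed the filter through the Huh1 groups alone, so its value is a description. IRF5 was 47.2-fold lower in Huh7 (adjusted p = 3.65e-14), and DHX58, a regulator of IFIH1, was 13.9-fold lower (adjusted p = 1.82e-11). Of the 82 genes tested 29 were called higher, beside 34.5% of all probes, and 42 lower, beside 36.2%, in Huh7 controls.

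The members did not all follow each other over the 18 arrays, which share 2 lines and 3 slides. Pearson's r was 0.919 between ISG15 and IFI6, 0.881 between IFIT2 and IFIT3, −0.973 between IFIH1 and MX1, and 0.011 between IFIT1 and IFIT3. Among 20553 named probes tested, the gene most like IFIT3 was SRPX2 (r = 0.996), that most like ISG15 was CYP39A1 (r = 0.975), that most like IFI6 was PLEKHG2 (r = 0.979) and that most like IFIT1 was NR1H3 (r = 0.949). These correlations are a description over arrays of 6 groups and largely trace the differences between lines and treatments.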

How the data were processed

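Signals of EpCAM+ Huh1 and Huh7 cells were taken from 18 1-colour Agilent arrays, 3 in each of 6 groups. The authors deposited the spot intensity of Feature Extraction 10.7.1.1, after background subtraction and detrending, and a table of normalized values, each a ratio to the 75th percentile of its array; 100% of the deposited ratio values lay within 0.05 log2 of the spot files. Here the spots of a probe that carried no flag were averaged as log2 intensity, less the 75th percentile of their array. The log2 75th percentile was 10.098 to 10.839, 25341 to 30094 probes per array were well above background by the scanner software, 316 to 447 spots per array were flagged and 0 were saturated. Of 42405 probes 78 had no unflagged spot on an array and were left out. The 29894 probes that stood well above background on every array of some group were tested. The number of arrays limits the precision.

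Groups came from the sample labels. All 18 arrays entered a single limma fit of 6 group means with eBayes, and p-values were adjusted by Benjamini-Hochberg over all probes tested. Bounds for probes not well above background on any array of a group compare the mean of the brighter group with, per array, the higher of the dim probe and the lowest signal well above background. The members, lists and tests were chosen with earlier results of these data known. Named genes were the 9 members, RDUR, list genes called after DSF in both lines in the same direction, list genes with the largest called rise or fall in a comparison, of which some are given, and the gene most correlated with a member. Gene symbols came from RefSeq accessions of the probes, and 25736 of 27099 probes with such an accession were named. Promoter windows were those of RefSeq on GRCh38.p14.

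Alternatives were median, quantile and spike-in scaling (6 spike-in probes), normexp background correction with offset 50, no filter, a filter on all 18 arrays, the deposited table, slide and replicate blocks, each array left out and an intensity-trend prior. The normexp correction used median spot and background signals, because the files used here hold no mean signal. The fit was tested on simulated data, and the outcome is not given here. Tools were R 4.3.3, limma 3.58.1, Python 3.11.15, pandas 2.3.3, numpy 2.4.6 and matplotlib 3.10.9.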

Additional observations from a re-analysis of the deposited data

Results flagged for a closer look

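The effect of DSF differed between the lines for 6 of the 9 genes, by the test of the Huh7 change less the Huh1 change. Of all probes tested, 21.1% were called positive and 19.2% negative for this difference. The difference was 1.19 for IFIT3, 1.08 for IFIT2, −0.58 for ISG15, −0.58 for OAS1, −0.60 for IRF1 and −0.79 for MX1 on the log2 scale, while the dimmer IFIT2 probe, at 0.09, was not called. With slide as a block MX1 (adjusted p = 0.159), IRF1 (adjusted p = 0.262) and IFIT2 (adjusted p = 0.0538) were not called. The effect of 5-FU differed between the lines by 1.66 in IFI6, 1.12 in IFIT3, 0.94 in MX1, 0.48 in ISG15, 0.43 in OAS1, −1.04 in IFIT2 and −1.65 in the dimmer IFIT2 probe. IFIT3 thus had the more positive change in Huh7 with either drug, while MX1, ISG15 and OAS1 had the more positive change in Huh1 with DSF and in Huh7 with 5-FU. MX1 was near background in Huh1, and well above it on 2 of 3 control and 2 of 3 5-FU arrays. The comparisons of a line share its 3 control arrays.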

How the results depend on the processing

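Of the tested changes of single member probes, none that was called changed its direction under any alternative run, in 648 recomputed values, of which 39 were no longer past the threshold. The reversals among member probes were of changes that had not been called, or of 5-FU changes given as a description. With median scaling IFIT2 after DSF in Huh1 was −0.055 and the DSF line difference of IFI6 0.094, and 3 member probes were called after DSF in Huh1 against 7. With spike-in scaling IFIH1 after DSF in Huh1 was 0.047, the DSF line difference of the dimmer IFIT2 probe −0.22, MX1 after 5-FU in Huh1 0.22, and 9 member probes passed after 5-FU in Huh7 against 4. With normexp correction that line difference was −0.073, the line difference of HERC5 after 5-FU, called at −1.30, was 0.36 (adjusted p = 0.0256), and 8 member probes passed after 5-FU in Huh7. With slide as a block 4 member probes were called after DSF in Huh7 against 8 and 3 for the DSF line difference against 6, the dimmer IFIT2 probe was −0.10 after DSF in Huh7, and its line difference −0.54. With 1 array left out, IFIH1 after DSF in Huh1 ranged from −0.164 to 0.030, the DSF line difference of IFI6 from −0.249 to 0.092 and that of the dimmer IFIT2 probe from −0.097 to 0.387. TICAM1 after DSF in Huh1, called at 0.16, was −0.015 with median scaling. The other type I targets called after DSF in Huh1 were 6 with spike-in scaling and 7 of 13 with the filter on all arrays, against 12, and 8 of 13 for the line difference, against 13. With normexp correction the IFIT3 line differences were 0.73 after DSF and 0.67 after 5-FU, and that of MX1 after DSF was −0.41. Of all called probes, 54.1% were higher after DSF in Huh1 (33.0% with median and 74.6% with spike-in scaling), 58.5% in Huh7 (34.7% with spike-in), 52.3% positive for the DSF line difference (68.5% and 17.1%), 51.3% for the 5-FU line difference (67.1% with spike-in) and 46.1% and 47.9% higher after 5-FU in Huh1 and Huh7 (98.4% and 95.7% with spike-in). The causes were not tested, apart from the filter, which left fewer genes.

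With 1 array left out, the calls numbered 5 to 7 after DSF in Huh1, 7 to 9 in Huh7, 8 to 9 between controls, 5 to 6 and 7 to 9 for the line differences after DSF and 5-FU, and 7 to 9 and 4 to 6 after 5-FU in Huh1 and Huh7. OAS1 after DSF in Huh1 lost its call without control replicate 1 (adjusted p = 0.0881) or 2 (0.0601) or DSF replicate 1 (0.0605) or 3 (0.106), MX1 without control replicate 2 (0.0814) or 3 (0.0873) or DSF replicate 1 (0.0712), and IFIT3 without DSF replicate 3 (0.0503). ISG15 after DSF in Huh7 lost its call without any of the controls (0.0719, 0.0688 and 0.0881) or without DSF replicate 2 (0.079) or 3 (0.1). The DSF line difference of IRF1 lost its call without control replicate 1 of Huh1 (0.0535) or DSF replicate 3 of Huh7 (0.0555), and that of MX1 without control replicate 2 (0.0522) or 3 (0.0527) of Huh1. Among named list genes, DSF calls in Huh1 were lost without any of its 6 control and DSF arrays other than DSF replicate 3 for PIAS1, control replicate 2 for RIGI, control replicate 1 for TICAM1, and control replicate 1 or DSF replicate 3 for UBE2L6, and for SOCS3 without control replicate 2 or 3 or DSF replicate 1. In Huh7 this held for RIGI without control replicate 3 and for PSME2 without control replicate 3 or DSF replicate 2 or 3. With spike-in scaling PIAS1, NLRX1, UBE2L6 and TICAM1 in Huh1, TICAM1 and JAK2 in Huh7 and the line difference of IFNAR1 were not called (adjusted p between 0.0972 and 0.555). Between controls 10 member probes were called with median scaling or normexp.

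Arrays with the same replicate number did not deviate together in the pairs of groups compared (r between −0.093 and 0.014). These values cannot show whether a replicate number stands for a shared experiment, because such deviations also hold the noise of each array. With the replicate block 7, 8, 8 and 6 member probes were called after DSF in Huh1 and Huh7, between controls and for the DSF line difference, as without it, and 8 against 7 for the 5-FU line difference.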
